A study of Mus musculus with 6 samples.

Results

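A set of 155 long intergenic noncoding RNAs (lincRNAs) was described in Sertoli cells with and without PA1. They were chosen by their measured counts, as all genes that the deposited annotation types as lincRNA and that had at least 30 raw counts in every library of at least 1 genotype, with a few imprinted RNAs left out by name. The table listed 1929 lincRNAs among 28262 genes. Of the 155 members, 101 reached 30 counts in both genotypes, 34 only in Pa1F/F and 20 only in Amh-pa1-/-. All 155 passed the filter on low counts and were tested, together with 188 further lincRNAs that were below the rule.

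The 6 RNA-seq libraries came from Sertoli cells purified from testes of 20-day-old C57BL/6 mice, with 3 libraries of Pa1F/F cells and 3 of Amh-pa1-/- cells. Both groups carry floxed alleles of Pa1, which encodes a partner of the MLL3/MLL4 histone methyltransferase complexes. In Amh-pa1-/- mice these alleles are deleted by a Cre recombinase under the Amh promoter, which is active in Sertoli cells. Besides genotype no treatment is named in the labels, and the cells had been kept in culture at 34 °C in 5% CO2. For this culture the paper's isolation method lists a medium with added insulin, EGF and transferrin, without a difference between genotypes. The labels do not say how many mice went into a library, so p-values measure the spread between libraries. No check of the deletion was made, because the reads of Pa1 were not used here.

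lincRNAs are transcripts from between protein-coding genes that carry no long open reading frame. Some act in the nucleus as scaffolds or next to their own gene, some bind proteins or microRNAs in the cytoplasm, and others are precursors from which microRNAs or small nucleolar RNAs (snoRNAs) are cut. Many are transcribed from enhancers or from promoters shared with a neighbouring gene, and the testis is known as a tissue with a rich set of them.

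Total counts ranged from 14051353 to 16231443 in Pa1F/F and from 13203757 to 15247587 in Amh-pa1-/- libraries, and at these depths 30 counts stood for 1.85 to 2.27 CPM. Levels are given as normalized counts, that is counts scaled by library size and TMM factor to a common depth. The Sertoli cell markers Sox9, Wt1, Dhh and Clu were present in all libraries, and the summed level of 10 Sertoli cell markers was 237200 to 241400 in Pa1F/F and 140700 to 182200 in Amh-pa1-/- cells, most of it Clu, while Rhox5 stayed at 1.95 to 15.5. Of 9 tested Sertoli cell markers 1 was called lower, Inha, the inhibin subunit (log2 fold change -1.23), and Gata4 had -0.88. Knockout replicate 3 stood apart from the other knockout libraries. Markers of other testis cells also moved. The summed level of 7 Leydig cell markers was 11680 to 13400 in Pa1F/F and 2423 to 4230 in Amh-pa1-/- libraries with 3 of 3 tested genes lower and Insl3 at or under 3 counts in every library. Most of this sum was Star and Cyp11a1. Cyp17a1, Hsd3b6 and Lhcgr were near absent too, at no more than 2.9, 4.5 and 13.6 normalized counts in any library. The 7 macrophage markers summed to 415 to 446 and 88.2 to 116, with 4 of 5 tested genes lower. The 4 peritubular myoid cell markers summed to 3138 to 3997 and 12120 to 17890, where Acta2 was higher, and its 3 companions were high in knockout replicate 3 alone. The 4 endothelial markers summed to 1700 to 1783 and 914 to 1469 (1 of 3 tested genes lower), most of it Cdh5. Kdr of this list went the other way in knockout replicate 3 (485, beside 80.0 and 74.4 in replicates 1 and 2) and was not called. The 6 spermatogonial markers summed to 63.9 to 112 and 29.3 to 72.1 (3 of 3 tested genes lower, Stra8 at or under 3 counts). Spermatocyte and spermatid markers had no called gene and summed to 111 or less in each library, with Piwil1 and Acrv1 at or under 3 counts. The part of these cells in the lincRNA values below was not tested, and in bulk RNA fewer cells of a type and less RNA per cell cannot be told apart.

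Sequences of members that the results turn on are shown first. For 76 members a RefSeq promoter window (250 bases before to 50 after the start, build GRCm38.p6, the build of the deposited coordinates) began within 1 kb of the listed start. Printed are the windows of AU020206 and 6030408B16Rik, the most lowered members of moderate or high level, and of Mirt1 and Gm17501, which were higher and hold a motif match. The windows are written 5′ to 3′ on the strand of the lincRNA, which is the minus strand for AU020206 and Mirt1 and the plus strand for the other pair. Capitals mark TGACTCA, the sequence bound by AP-1 factors, and TATAAA, the TATA box, on either strand. The motifs do not overlap each other here.
AU020206, chr7:75782071-75782370: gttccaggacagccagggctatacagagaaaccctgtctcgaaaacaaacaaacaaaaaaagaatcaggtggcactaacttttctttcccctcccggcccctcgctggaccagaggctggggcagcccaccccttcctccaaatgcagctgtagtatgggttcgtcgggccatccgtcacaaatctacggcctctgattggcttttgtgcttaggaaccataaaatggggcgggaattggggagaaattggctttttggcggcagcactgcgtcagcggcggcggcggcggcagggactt
6030408B16Rik, chr15:101292975-101293274: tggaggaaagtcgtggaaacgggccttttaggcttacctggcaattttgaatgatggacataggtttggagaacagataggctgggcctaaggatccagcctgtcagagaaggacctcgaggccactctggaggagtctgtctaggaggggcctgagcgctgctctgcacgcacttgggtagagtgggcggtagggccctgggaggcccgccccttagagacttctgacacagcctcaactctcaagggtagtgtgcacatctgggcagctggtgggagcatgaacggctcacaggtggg
Mirt1, chr19:53464747-53465046: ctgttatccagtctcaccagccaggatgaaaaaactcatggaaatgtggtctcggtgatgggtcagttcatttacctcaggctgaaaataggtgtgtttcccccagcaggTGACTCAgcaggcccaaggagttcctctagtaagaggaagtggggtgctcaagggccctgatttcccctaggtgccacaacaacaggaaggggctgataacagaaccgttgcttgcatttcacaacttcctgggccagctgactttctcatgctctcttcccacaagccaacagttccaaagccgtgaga
Gm17501, chr3:145649827-145650126: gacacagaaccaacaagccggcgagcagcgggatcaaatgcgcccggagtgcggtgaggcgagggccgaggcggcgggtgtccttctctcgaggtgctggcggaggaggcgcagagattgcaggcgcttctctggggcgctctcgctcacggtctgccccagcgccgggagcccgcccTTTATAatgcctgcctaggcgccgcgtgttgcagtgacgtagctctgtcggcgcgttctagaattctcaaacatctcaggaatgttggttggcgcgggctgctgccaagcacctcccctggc

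The Mirt1 window held TGACTCA with its first base at -140 from the start. In the Gm17501 window, which is shared with the divergent gene Cyr61, the reverse complement of TATAAA began at -72. This match lies 24 to 29 bases before the listed start of Cyr61 and on the strand of Cyr61, and 155 bases of the window are inside Cyr61. Among the 76 members with a window, 4 held TGACTCA (5.26%) and 5 held TATAAA (6.58%), beside 5.20% and 13.6% of all 32851 promoter windows. The windows of the 14 higher members had a median ratio of observed to expected CpG of 0.43, and 2 of them reached 0.6. The 5 lower members had a median of 0.65, with 3 at 0.6 or more. The 57 members that were not called had a median of 0.69, with 32 at 0.6 or more. All windows had a median of 0.38, and 35.8% of them reached 0.6. The median level differed between these groups too, with 52.5 normalized counts for the higher, 176 for the lower and 66.2 for the remaining members.

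Of the members, 8 held microRNA genes on their own strand. A selection of their mature microRNAs is printed with the seed, bases 2 to 8, in capitals, with both arms for Mir202 and Mir9-2, whose hosts differ most, and 1 arm each for Mirlet7d and the cluster of Mir17hg. Gm2044 holds Mir7686 and Mir202, a microRNA gene of the gonads, and C130071C03Rik (Mir9-2hg in a newer annotation) holds Mir9-2, known from neural progenitors. 6720427I07Rik holds Mirlet7d, of the let-7 family, and Mir17hg is the host of the miR-17-92 cluster, known for its role in proliferation.
miR-202-5p: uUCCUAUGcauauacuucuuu
miR-202-3p: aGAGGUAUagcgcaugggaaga
let-7d-5p: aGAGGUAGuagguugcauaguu
miR-9-5p: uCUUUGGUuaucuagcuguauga
miR-9-3p: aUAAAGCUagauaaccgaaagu
miR-17-5p: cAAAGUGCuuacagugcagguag
miR-20a-5p: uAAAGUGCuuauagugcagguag
miR-18a-5p: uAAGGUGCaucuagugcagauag
miR-19a-3p: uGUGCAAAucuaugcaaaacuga
miR-19b-3p: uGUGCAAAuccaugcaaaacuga
miR-92a-3p: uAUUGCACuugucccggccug

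Seeds shared between printed microRNAs were those of the miR-17-92 cluster. There miR-17-5p and miR-20a-5p share AAAGUGC, and miR-19a-3p and miR-19b-3p share GUGCAAA. The seeds of miR-202-3p and let-7d-5p were alike in 6 of 7 bases, and the whole sequences in 9 of 22. The libraries hold long RNA, so the values below are those of the hosts and not of the mature microRNAs.

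Together the members held 0.361 to 0.382% of all counts in Pa1F/F libraries and 0.331, 0.338 and 0.265% in Amh-pa1-/- replicates 1, 2 and 3. The genotypes did not overlap. Malat1 alone took 0.0941 to 0.103% in Pa1F/F and 0.0507 to 0.0684% in Amh-pa1-/- libraries. Without Malat1 the shares were 0.267 to 0.279% and 0.263, 0.270 and 0.214%, so that the ranges met and knockout replicate 3 was the low library. The counts were concentrated in few genes, since the 8 members with the most counts held 61.6% of them while 103 members had a mean under 100 normalized counts. The median coefficient of variation was 12.1% among Pa1F/F and 20.1% among Amh-pa1-/- libraries. Knockout replicate 3 was the lowest knockout library for 81 members and the highest for 54.

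Between genotypes, 15 members were lower and 25 higher in Amh-pa1-/- cells at an adjusted p under 0.05 (edgeR quasi-likelihood test, Benjamini-Hochberg over 14919 genes) and a log2 fold change of at least 1 in size, and 115 were not called. Over all tested genes 6.56% were called lower and 5.44% higher. The members' count is a description, because those that passed through 1 genotype alone were chosen on the genotype in which they reached the threshold. All 11 called members that reached 30 counts only in Pa1F/F were lower, and all 15 called members that did so only in Amh-pa1-/- were higher. The genotypes did not overlap for 87 members (56.1%), beside 52.4% of all tested genes. The members had a median log2 fold change of -0.04, and all tested genes one of 0.00.

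A level that does not look at genotype is the mean over all 6 libraries. At a mean of at least 60 normalized counts the table held 78 lincRNAs, all of them members, of which 5 were lower and 10 higher. Of the 5, 4 had reached 30 counts in both genotypes, as had 7 of the 10, and the others (Gm2044, Gm15228, Gm42744 and Gm33103) had reached it in 1 genotype alone. Among all genes at that level 4.71% were called lower and 4.42% higher, against 6.41% and 12.8% of these 78. Without the fold threshold 13 were lower and 15 higher, where 17.9% and 20.7% of all genes at that level were called. The genotypes did not overlap for 44 of the 78 (56.4%), beside 56.2% of all genes at that level. Among the 46 of the 78 whose span overlaps no listed gene, 3 were called lower (6.52%) and 6 higher (13.0%). The mean of 60 is a floor, and levels above it were not matched between the lincRNAs and all genes. Of the 101 members that reached 30 counts in both genotypes, 4 were called lower (3.96%) and 10 higher (9.90%). Over all tested genes these shares were 6.56% and 5.44%.

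**Figure D1:**
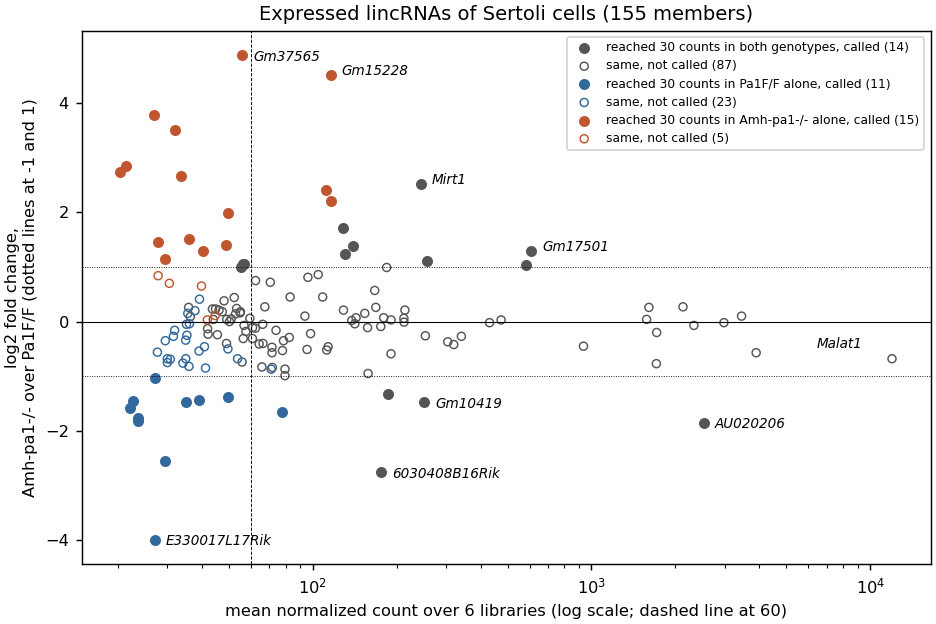
Each circle is 1 of the 155 lincRNAs, with its mean normalized count over 6 libraries on a log axis and its log2 fold change of Amh-pa1-/- over Pa1F/F on the vertical axis. Colour gives the genotype in which it reached 30 counts, filled circles are called, and the members that passed in 1 genotype alone sit mostly at low means and on the side of that genotype.

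Of the 8 members with the most counts, only AU020206 was called. Malat1 (chr19:5795690-5802672, minus strand), a nuclear speckle RNA, had 15050, 15280 and 13860 normalized counts in Pa1F/F and 10180, 10150 and 7266 in Amh-pa1-/- replicates 1 to 3. Every knockout library was below every control library. The log2 fold change was -0.68 (SE 0.14, adjusted p = 0.00989 by edgeR), which misses the fold threshold. Neat1 (chr19:5824708-5845478, minus strand), the scaffold of paraspeckles, stood at 2253, 2710 and 2188 in Pa1F/F and at 2653, 2698 and 1477 in Amh-pa1-/- cells. The groups overlapped, with knockout replicate 3 the lowest of all, and the log2 fold change of -0.07 (SE 0.23, adjusted p = 0.841 by edgeR) became 0.17 without that library.

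2 cytoplasmic RNAs with known partners lay close to equal between genotypes. Norad, listed as 2900097C17Rik (chr2:156388065-156392979), which binds Pumilio proteins, had means of 3008 ± 225 and 2961 ± 158 (SD, n = 3 each) and a log2 fold change of -0.02 (SE 0.07). Cyrano, listed as 1700020I14Rik (chr2:119594297-119607502), which directs the decay of miR-7, had 3329 ± 139 and 3577 ± 171 and a log2 fold change of 0.10 (SE 0.06). The libraries of the genotypes overlapped for both. Gm26917 (chr17:39843013-39846341), which is next to a ribosomal RNA gene, ranged from 1797 to 2123 in Pa1F/F and reached 3043, 2897 and 1042 in Amh-pa1-/- cells. Its knockout libraries lay on both sides of the controls, so the log2 fold change of 0.27 had an SE of 0.36.

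AC167229.2 (chr10:100129868-100144126), the second by count, lies 29452 bases from Kitl, the gene of stem cell factor that Sertoli cells supply to germ cells. It had 4416, 4782 and 4750 normalized counts in Pa1F/F and 3658, 3937 and 1830 in Amh-pa1-/- cells. All knockout libraries were below the controls, but replicate 3 was far below its companions, and the log2 fold change of -0.57 (SE 0.26) had an adjusted p of 0.137 by edgeR. Kitl itself had a log2 fold change of 0.38 (SE 0.12, adjusted p = 0.0505 by edgeR). 1810058I24Rik, which a newer annotation lists as the protein-coding gene Stmp1 of mitochondria, had 1829 ± 123 and 1597 ± 26.4 (SD, n = 3 each) and a log2 fold change of -0.20 (SE 0.06, adjusted p = 0.0472 by edgeR).

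**Figure D2:**
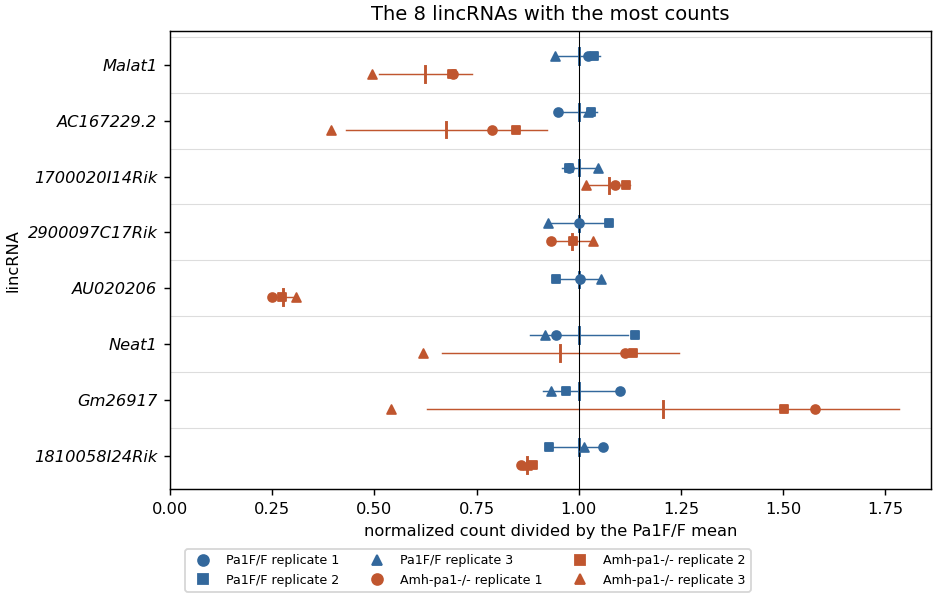
Normalized counts of the 8 members with the most counts, each divided by its Pa1F/F mean, with 1 marker per library, a vertical bar at the mean and a horizontal line of 1 SD to each side. AU020206 stands apart at a mean of 0.277 of the control level, Malat1 is lower in all knockout libraries, and Amh-pa1-/- replicate 3 lies low for Malat1, AC167229.2, Neat1 and Gm26917.

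The lower members with a mean of at least 60 were 5. AU020206 (chr7:75769038-75782099, minus strand), the fifth by count, had 3973, 3734 and 4172 normalized counts in Pa1F/F and 987, 1086 and 1219 in Amh-pa1-/- cells. The groups were far apart, and the coefficient of variation was 10.6% or less in each. It was 3.61-fold lower, with a log2 fold change of -1.85 (SE 0.09, adjusted p = 8.05e-05 by edgeR).

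6030408B16Rik (chr15:101293212-101297426, plus strand), which a newer annotation lists as Smim41, a gene of a small membrane protein, had 349, 323 and 251 in Pa1F/F and 47.8, 43.9 and 44.1 in Amh-pa1-/- cells. No knockout library came near a control, and the log2 fold change was -2.76 (SE 0.16, adjusted p = 0.000124 by edgeR). Gm10419 (chr5:108367769-108378239) had 434, 313 and 362 against 92.7, 137 and 167, without overlap, and a log2 fold change of -1.48 (SE 0.23, adjusted p = 0.00363 by edgeR). Zfp469 (chr8:122269569-122272650), a zinc finger gene that newer annotations list as protein-coding, had 218, 359 and 218 against 122, 109 and 87.2. Its control replicate 2 was high, the groups did not overlap, and the log2 fold change was -1.32 (SE 0.24, adjusted p = 0.00674 by edgeR). The count of 5 drops to 3 without members that newer annotations list as protein-coding.

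Gm2044 (chr7:139957005-139958039, minus strand), the host of Mir202 printed above, had 120, 121 and 112 normalized counts in Pa1F/F and 20.5, 20.3 and 71.1 in Amh-pa1-/- cells. The controls were tight and knockout replicate 3 lay between them and the other knockout libraries. The log2 fold change of -1.65 (SE 0.47, adjusted p = 0.0339 by edgeR) lost its call when any library other than knockout replicate 3 was left out, at log2 fold changes of -1.67 to -1.34. The gene overlaps Gm16201 on the other strand, and the library kit does not mark strand.

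Higher in Amh-pa1-/- cells were 10 members at this level, led by Gm15228. Mirt1 (chr19:53441212-53464796, minus strand), first described after myocardial infarction, had 88.8, 56.2 and 73.4 in Pa1F/F and 505, 534 and 210 in Amh-pa1-/- cells. The lowest knockout library, replicate 3, was still above all controls, and the log2 fold change was 2.51 (SE 0.38, adjusted p = 0.00336 by edgeR). Gm42744 (chr5:4784753-4799094) had 35.3, 43.6 and 26.2 against 207, 179 and 176, with a log2 fold change of 2.41 (SE 0.20, adjusted p = 0.000419 by edgeR). It lies 4297 bases from Cdk14, a cyclin-dependent kinase gene. Gm33103 (chr8:68971145-69001683) had 26.3, 50.4 and 48.2 against 221, 216 and 139, with a log2 fold change of 2.21 (SE 0.30).

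Gm14005 (chr2:128178319-128502765), named Morrbid in a newer annotation, is known as an RNA that represses Bcl2l11, the gene of the death factor BIM, in myeloid cells. It had 80.7, 71.7 and 78.7 normalized counts in Pa1F/F and 224, 242 and 137 in Amh-pa1-/- cells, without overlap, and a log2 fold change of 1.38 (SE 0.23, adjusted p = 0.00451 by edgeR). Bcl2l11, 15772 bases away, had 542, 923 and 583 against 340, 363 and 349, and a log2 fold change of -0.96 (SE 0.20, adjusted p = 0.0114 by edgeR), just short of the fold threshold. Both genes were thus apart between genotypes in opposite directions, while the macrophage markers given above were lower. Gm14005 overlaps 4 listed genes, and its name was taken up after its values were seen.

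Gm17501 (chr3:145650312-145677580, plus strand) had 427, 212 and 420 in Pa1F/F and 969, 838 and 781 in Amh-pa1-/- cells, and its log2 fold change was 1.29 (SE 0.26, adjusted p = 0.00947 by edgeR). AC147634.1 (chr10:108417251-108453297), beside the apoptosis gene Pawr, had the tightest libraries of the higher members named here, at 82.5, 80.4 and 70.3 against 181, 199 and 170, and a log2 fold change of 1.24 (SE 0.13). Gm44275 (chr6:135312155-135319561) had 69.8, 34.9 and 74.5 against 267, 238 and 88.2. Its knockout replicate 3 was close to the controls, and the log2 fold change of 1.72 (SE 0.46, adjusted p = 0.0275 by edgeR) lost its call with limma-voom (1.63) and when any library other than knockout replicate 3 was left out, at 1.45 to 1.92. 1700019B21Rik, or Tslrn1 (chrX:62510539-62527011), had 156, 194 and 138 against 416, 380 and 261, with a log2 fold change of 1.11 (SE 0.21) that was 0.98, and not called, without knockout replicate 1. The last of the 10, 1700016F12Rik, which was named after its values were seen, had a log2 fold change of 1.04 (SE 0.14).

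**Figure D3:**
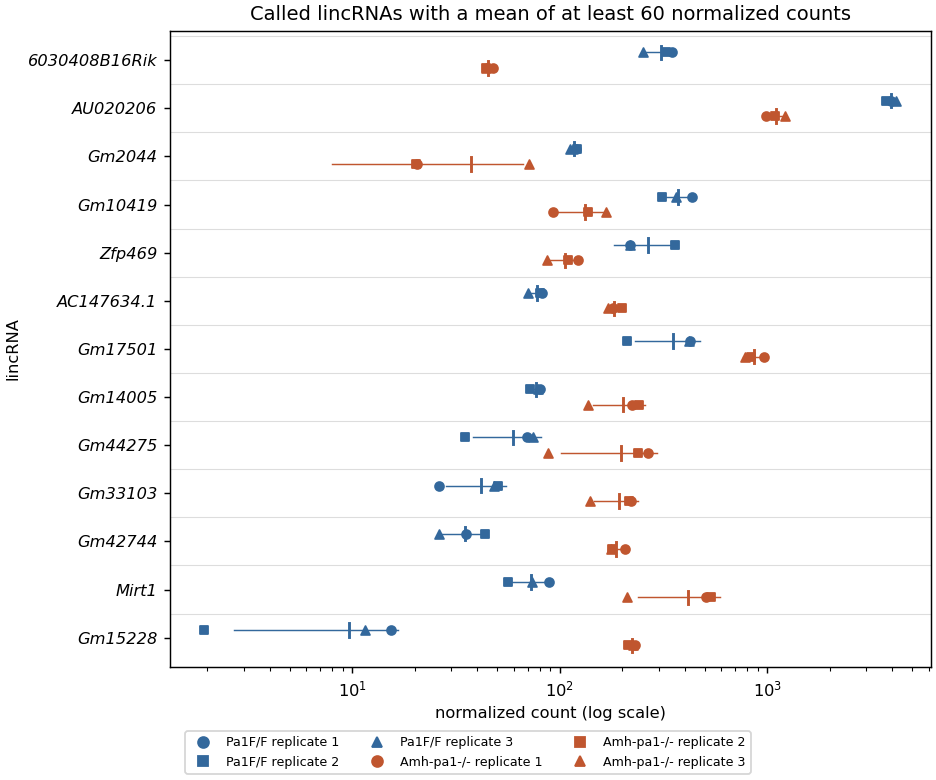
Normalized counts on a log axis of 13 called lincRNAs with a mean of at least 60, namely all 5 lower and the 8 with the highest log2 fold change of the 10 higher, ordered by log2 fold change, with 1 marker per library, a vertical bar at the mean and a line of 1 SD. No knockout marker overlaps the control markers of its gene, which was a condition of the choice. In Gm2044, Gm44275 and Mirt1 knockout replicate 3 lies nearest to the controls.

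Some calls were lost when alike libraries were counted as 1, and whether this came from the fewer samples was not tested. When the most alike libraries were summed (Pa1F/F replicates 1 and 3, Amh-pa1-/- replicates 1 and 2), which leaves 2 libraries per genotype and takes the calls over all tested genes from 1791 to 883, AU020206, 6030408B16Rik, Gm10419, Gm15228, Gm42744, Gm33103 and AC147634.1 were still called. Of the called members given above with their libraries, 7 were not, namely Mirt1 (2.41, adjusted p = 0.0575 by edgeR), Gm14005 (1.31, adjusted p = 0.0703 by edgeR), Gm17501 (1.42, adjusted p = 0.0758 by edgeR), Zfp469 (-1.47, adjusted p = 0.0591 by edgeR), Gm2044 (-1.40, adjusted p = 0.202 by edgeR), Gm44275 (1.68, adjusted p = 0.158 by edgeR) and 1700019B21Rik (0.98, adjusted p = 0.0917 by edgeR).

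Where members that reached 30 counts in 1 genotype alone have a mean under 60, their counts, fold changes and calls are a description and no test of the genotype, since the rule used the same counts. The 4 with the widest difference each way are given by their counts, Gm15228 with its mean over 60 among them. In Amh-pa1-/- cells the widest difference was that of Gm37565 (chr2:12697417-12706853), with 3, 0 and 8 raw counts in Pa1F/F and 147, 112 and 55 in Amh-pa1-/- replicates 1 to 3. The ratio of summed counts per depth was 30.3 (95% exact interval 16.7 to 61.3, counting error only). Gm15228 (chrX:167164097-167171278) had 17, 2 and 11 counts against 237, 189 and 224, a ratio of 23.0 (16.0 to 34.4). Its knockout libraries had a coefficient of variation of 4.18%.

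CT573364.1 (chr12:97312849-97315853) had 3, 6 and 2 counts against 61, 45 and 41, and 4833412C05Rik (chr7:67784538-67804139) had 12, 2 and 2 against 64, 63 and 44. Their ratios were 14.2 (7.70 to 29.1) and 11.4 (6.79 to 20.3). In all 4 every knockout library was above every control, whose counts ran from 0 to 17.

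In the other direction, E330017L17Rik (chr4:129906216-129919787) had 64, 55 and 40 counts in Pa1F/F and 4, 4 and 1 in Amh-pa1-/- cells, and the control level was 16.6 times the knockout level (8.55 to 37.1). Gm45768 (chr7:37317899-37321100) had 60, 49 and 48 against 11, 5 and 9, a ratio of 5.92 (3.86 to 9.42). A330094K24Rik had 44, 37 and 33 against 8, 9 and 13, a ratio of 3.58 (2.38 to 5.54). AC125351.1 (chr12:81717830-81720052) had 40, 39 and 34 against 14, 10 and 7, a ratio of 3.43 (2.29 to 5.29). The knockout libraries were low throughout these 4 genes, replicate 3 included.

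The rule's threshold fell among genes of like level. Just inside were Snhg12, whose lowest count in its better genotype was 30, and Gm5535 and AI427809 at 31. Just outside were Gm9801, 4833418N02Rik and Ftx, an RNA of the X-inactivation centre, at 29 each. AI427809 is named Mexis in a newer annotation and is known to support Abca1, a cholesterol exporter gene, in macrophages. It had 38, 49 and 31 counts in Pa1F/F and 21, 18 and 30 in Amh-pa1-/- cells. With a threshold of 20 counts the set would have 216 members, and with 50 counts 93.

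A microRNA or snoRNA gene lay inside 13 members. Of the 9 hosts that reached 30 counts in both genotypes 0 were called by edgeR, DESeq2 or limma-voom, where edgeR called 6.56% of all tested genes lower and 5.44% higher. Without the fold, 3 of these 9 had an adjusted p under 0.05 in edgeR, where 17.1% of all tested genes were lower and 18.2% higher. An unadjusted p under 0.05 in edgeR was reached by 5 of the 9, with no share over all tested genes to set beside it. The 3 calls among the hosts, Gm2044 and 2700038G22Rik lower and C130071C03Rik higher, fell to the 4 hosts chosen through 1 genotype alone. Gm2044 and 2700038G22Rik lost them with the most alike libraries summed, at log2 fold changes of -1.40 and -1.38 (adjusted p = 0.202 and 0.0983 by edgeR). C130071C03Rik (chr13:83721381-83884194), the host of Mir9-2, reached 30 counts only in Amh-pa1-/- cells, with 4, 6 and 6 counts in Pa1F/F and 35, 36 and 32 in Amh-pa1-/- cells. Mir17hg (chr14:115042879-115046727) had 46.2, 50.4 and 43.0 normalized counts against 49.8, 69.9 and 115. Its knockout replicate 3 was the high library, the genotypes overlapped, and the log2 fold change of 0.75 (SE 0.32) had an adjusted p of 0.109 by edgeR. 6720427I07Rik, the host of Mirlet7d, stood at 90.8 ± 11.0 against 74.2 ± 7.73 (SD, n = 3 each), with -0.29 (SE 0.16) as log2 fold change.

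snoRNA hosts carry guides for the modification of ribosomal RNA in their introns. Snhg6 had 342, 389 and 300 normalized counts in Pa1F/F and 267, 263 and 271 in Amh-pa1-/- cells. Its genotypes did not overlap, and the log2 fold change was -0.37 (SE 0.11, adjusted p = 0.0437 by edgeR). Snhg18 had 256, 183 and 250 against 133, 121 and 203, with overlap and a log2 fold change of -0.59 (SE 0.23, adjusted p = 0.0901 by edgeR). 2700038G22Rik, the host of Snord93, had 72, 72 and 35 counts against 20, 12 and 30. It had reached 30 counts only in Pa1F/F, and lost its call when any 1 of Pa1F/F replicates 1 and 2 and Amh-pa1-/- replicates 1 and 2 was left out.

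**Figure D4:**
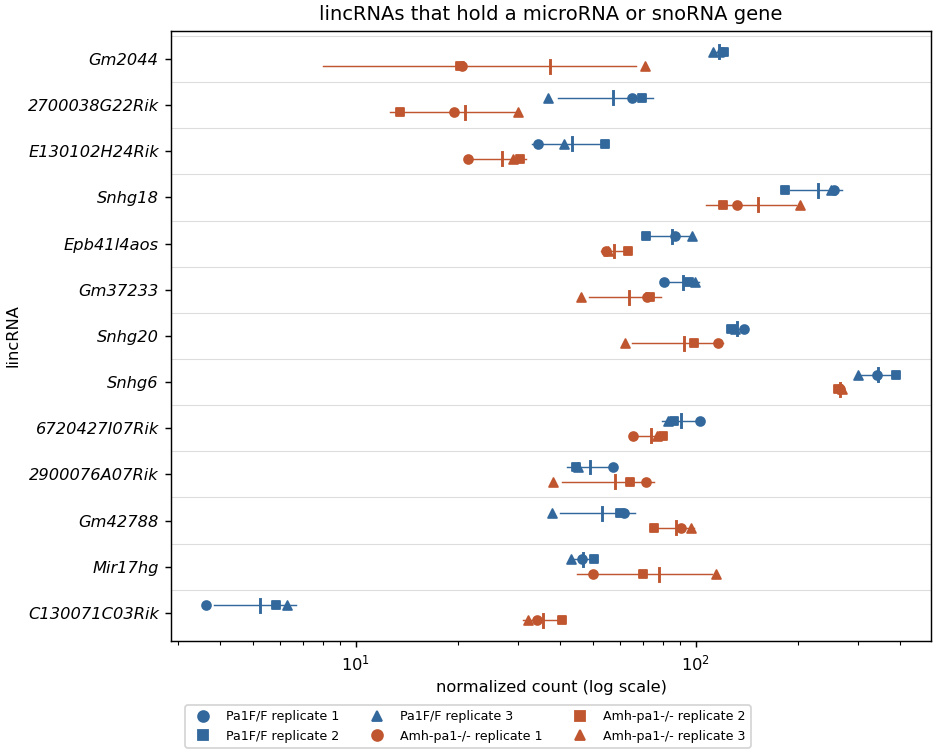
Normalized counts on a log axis of the 13 lincRNAs that hold a microRNA or snoRNA gene on their strand, with 1 marker per library, a vertical bar at the mean and a line of 1 SD. The markers of the genotypes overlap for Snhg18, Mir17hg and 2900076A07Rik and do not for the other 10, which are 6 of the 9 chosen through both genotypes (beside 52.4% of all tested genes) and all 4 chosen through 1 genotype alone, where the choice favours no overlap, and Mir17hg spreads from 49.8 to 115 among the knockout libraries.

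3 further members with a known place or role were not called. 2610035D17Rik (chr11:113043895-113201838), within the wide region around the Sertoli cell gene Sox9, had 201, 198 and 226 normalized counts in Pa1F/F and 104, 152 and 67.1 in Amh-pa1-/- cells. The genotypes did not overlap, and the log2 fold change of -0.95 (SE 0.27, adjusted p = 0.0345 by edgeR) was short of the fold threshold but became -1.26 and called without knockout replicate 2. Sox9 had a log2 fold change of -0.12 (SE 0.17). Gm53, in the HoxB cluster, had 1023, 1164 and 1055 against 953, 879 and 542, without overlap, and a log2 fold change of -0.45 (SE 0.20, adjusted p = 0.123 by edgeR). Trp53cor1, or lincRNA-p21, which lies beside Cdkn1a, had 57, 50 and 36 counts against 42, 26 and 8. Knockout replicate 3 was the low library, and Cdkn1a was low there too, at 1661 normalized counts beside 3719 to 3849 in the other 5 libraries.

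For 123 members the nearest tested protein-coding gene that does not overlap them lay within 50 kb. Of these neighbours, 14 (11.4%) were called, beside 12.0% of all tested protein-coding genes. They were 8 of the 31 neighbours of called members (25.8%) and 6 of the 92 neighbours of members that were not called (6.52%), a difference that was not tested, since member and neighbour come from the same libraries. Both genes were called in 8 pairs, 5 times in the same direction and 3 times in opposite directions. Of the 8 members in these pairs, 6 had reached 30 counts in 1 genotype alone, so that their own direction is a description. With the most alike libraries summed, 7 of the 8 members were no longer called, and Gm33103 was the exception. The log2 fold changes of the 7 were then 1.15 to 1.68 for the higher members and -1.83 and -1.30 for the lower ones. Their adjusted p ran from 0.0514 to 0.158 by edgeR. The log2 fold changes of member and neighbour had a Spearman correlation of 0.18 and a Pearson r of 0.10 over the 123 pairs, which come from the same libraries, and 0.31 and 0.29 over the 72 pairs within 10 kb.

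Divergent pairs whose starts face away from each other within 2 kb numbered 19. In these head-to-head pairs the Spearman correlation was 0.66, and 12 pairs had log2 fold changes of the same sign. Most of them were small, since 2 of the members and 1 of the neighbours were called. The pair called on both sides was Gm17501 and Cyr61, the gene of a matricellular protein, with starts 331 bases apart and the shared window printed above. Cyr61 had 8287, 6702 and 8167 normalized counts in Pa1F/F and 17440, 16780 and 22140 in Amh-pa1-/- cells. Its log2 fold change of 1.28 (SE 0.14, adjusted p = 0.000937 by edgeR) stood beside 1.29 (SE 0.26) of the lincRNA.

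A further 4 pairs were called in the same direction. AC163032.1 lies 369 bases from the end of Sp4, a zinc finger transcription factor gene on the same strand, and they had log2 fold changes of 1.14 and 1.01. AC125351.1 lies 958 bases from Map3k9, a kinase gene on the same strand, with -1.77 and -1.34. In the same orientation, Gm44275 and Pbp2 (1750 bases) had 1.72 and 1.73, and Gm17322 and Sema7a (35176 bases) had -1.48 and -1.05. Gm17322 also overlaps Cyp11a1, a Leydig cell marker of the list above that was lower at 4250, 4212 and 4695 normalized counts against 352, 364 and 377, and reads of the pair cannot be told apart where they overlap.

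Opposite directions were seen in AC155293.3 and Fam110c (1.51 and -1.39), AC135672.1 and Smad6 (1.30 and -1.60), and Gm33103 and Slc18a1 (2.21 and -1.67). Smad6 encodes an inhibitor of BMP signalling, with 41.7, 58.1 and 22.0 normalized counts against 13.7, 10.1 and 16.0. Slc18a1, a monoamine transporter gene 36028 bases from Gm33103, had 160, 150 and 154 against 46.9, 54.1 and 45.1, so that it fell in each knockout library while the lincRNA rose. AC155293.3 lost its call when any library other than Amh-pa1-/- replicates 1 and 3 was left out, and AC163032.1 without Pa1F/F replicate 1 or 3.

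**Figure D5:**
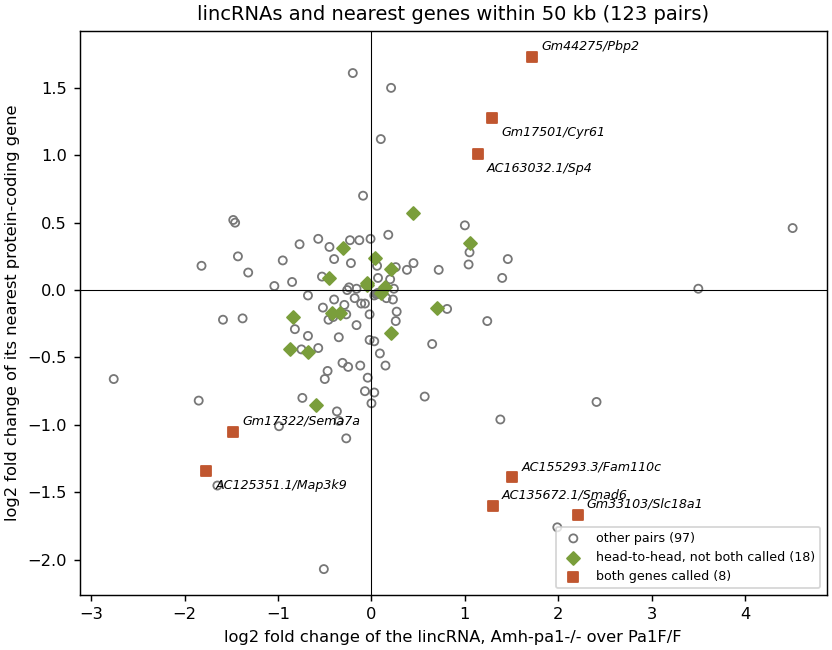
Log2 fold change of each lincRNA against that of its nearest protein-coding gene within 50 kb, for 123 pairs. Squares are the 8 pairs with both genes called, 5 of them in the same direction, diamonds are head-to-head pairs, and most other pairs cluster near 0 on the vertical axis.

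Genes that process or degrade noncoding RNA were not among the called ones. Of 48 genes of the nuclear exosome, Integrator, nonsense-mediated decay, paraspeckles, nuclear speckles and RNase P, all were tested and 0 were called in either direction by edgeR, DESeq2 or limma-voom. By edgeR 6.56% of all tested genes were called lower and 5.44% higher. An unadjusted p under 0.05 in edgeR was reached by 22 of the 48, with no share over all tested genes to set beside it. At an adjusted p under 0.05 alone 7 were lower and 8 higher, where 17.1% and 18.2% of all tested genes were. Skiv2l2, the helicase of the nuclear exosome that degrades many lincRNAs, had 1165, 1155 and 1075 normalized counts in Pa1F/F and 717, 801 and 852 in Amh-pa1-/- cells, and its log2 fold change was -0.52 (SE 0.08). Ints3 of Integrator had -0.59 (SE 0.07), Pspc1 of paraspeckles -0.56 (SE 0.11), and the exosome subunit Exosc2 0.54 (SE 0.11).

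The biotype itself was checked against other annotations. By Ensembl identifier 135 members had an entry in GENCODE M39, of which 127 were lncRNA, 5 protein-coding and 3 pseudogenes. RefSeq entries, looked up by symbol or synonym, were found for 115, with 100 lncRNA, 12 protein-coding and 3 pseudogenes. The span of 61 members overlapped another listed gene, 24 on the same strand and 45 on the other, and 94 overlapped none. Besides those named with an overlap, AC167229.2, Mirt1, Gm10419, Gm44275, AC147634.1, C130071C03Rik, 2700038G22Rik, Snhg6 and Snhg18 share bases with another listed gene, so their counts are uncertain where the spans overlap.

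Spread within a genotype was widest for Gdap10, Gm2044 and Gm15228 among members with a mean of at least 60. Gdap10 had 45.3, 203 and 59.8 normalized counts in Pa1F/F and 56.6, 56.3 and 56.1 in Amh-pa1-/- cells. A single library, Pa1F/F replicate 2, gave the log2 fold change of -0.87 (SE 0.56), which was 0.10 without it. Gdap10 overlaps Nampt.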

How the data were processed

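RNA-seq libraries of Sertoli cells were made with a kit that does not mark strand. The authors aligned reads to GRCm38 with HISAT2 (2.1.0) and counted them per gene with HTSeq (0.6.0), per the methods and the submitters' processing notes; the strand setting is not given in the sources used here. The deposited values used were these raw counts. The table also holds the authors' comparison columns (means, fold changes, p-values and calls), which were not used.

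Groups came from the labels. Counts were tested in R 4.3.3 with edgeR 4.0.16 (filterByExpr by group, minimum count 10, minimum total 15, TMM, quasi-likelihood F-test without covariates, Benjamini-Hochberg over 14919 genes). Called genes had an adjusted p under 0.05 and a log2 fold change of 1 or more in size, and a standard error is the absolute log2 fold change divided by the square root of F. DESeq2 1.42.0 and limma 3.58.1 were alternatives. The steps were tested on simulated independent libraries with changes larger than the fold threshold. That test does not cover alike libraries or changes near the threshold. Ratios of summed counts have exact 95% intervals.

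Named members are those on a list of known lincRNAs and hosts, up to 8 called members in each direction with a mean of at least 60 and no overlap, the 8 highest by count, the 4 with the widest difference each way that passed in 1 genotype, 3 each side of the threshold, called neighbour pairs and the 3 with the widest spread. The members and lists were chosen with earlier results of these data known. Members were matched by identifier to GENCODE M39 (names and types only) and by symbol or synonym to RefSeq. Pa1 was not analysed here. Sequences are from RefSeq, GRCm38.p6. Without molecular identifiers, intervals cover counting error only.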

Additional observations from a re-analysis of the deposited data

How the results depend on the processing

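The counts of called members kept within 1.5 times of 15 lower and 25 higher with DESeq2 size factors, DESeq2's Wald test, limma-voom and no filter on low counts. They moved to 4 lower and 10 higher when tested by glmTreat against a log2 fold change of 1, to 25 lower without a fold threshold, and to 5 lower and 10 higher with the close replicate pairs summed, which leaves fewer samples. Calls over all tested genes went from 1791 of 14919 to 538, 5266 and 883 (of 15966) in these 3 settings. At a mean of at least 60 normalized counts, 5 lower and 10 higher became 2 and 4 by glmTreat, 13 lower without a fold threshold, and 3 and 5 with the close pairs summed. Of alternatives chosen after seeing the data, members whose span overlaps no listed gene gave 3 and 6 of 46 (fewer genes), and leaving out members that are protein-coding in a newer annotation gave 3 lower. Leaving out 1 library at a time gave 10 to 15 lower and 18 to 25 higher members, and 4 to 6 and 8 to 11 at a mean of at least 60. The replicate numbers did not pair the samples (correlations of deviations 0.108, -0.164 and -0.179 for numbers 1, 2 and 3), and with the replicate number as a block 14 were lower and 23 higher, and 5 and 9 at a mean of at least 60. The neighbour pairs called in the same direction were 4 within 10 kb, 5 within 100 kb and 6 with overlapping pairs counted. Of 28 called named members, 12 were called in all 12 alternatives with a value per gene, 16 were not called with the close pairs summed, and 0 turned direction. Uncalled members that changed sign were 2900097C17Rik (0.03 without Pa1F/F replicate 2, 0.02 without Amh-pa1-/- replicate 1, range -0.06 to 0.03), Neat1 (0.03 without Pa1F/F replicate 2, 0.17 without Amh-pa1-/- replicate 3, range -0.19 to 0.17) and Gdap10 (0.10 without Pa1F/F replicate 2, range -1.22 to 0.10). The cause was not tested. At 30 counts a ratio between libraries carries wide counting error, so members near the threshold say little about small differences.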
